A study of Mus musculus with 9 samples.

Results

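Macrophage identity genes were followed in the skin of mice that had lost SPT6, a histone chaperone and transcription elongation factor, in the basal epidermis. The set held 10 genes that are in common use as macrophage markers, namely Adgre1, Cd68, Mrc1, Cd163, Lyz2, Csf1r, Mertk, C1qa, C1qb and C1qc. They were chosen by name, and all 10 were among the 16426 genes tested of 17943 in the count table. The control group was 5 Supt6 fl/fl mice given corn oil, which the sample labels call wild-type. The Supt6-KO group was 4 Supt6 fl/fl mice with K14-CreERT, a tamoxifen-activated Cre recombinase under the Keratin 14 promoter of basal keratinocytes, given 50 mg/kg tamoxifen on 5 consecutive days during the first telogen. Skin was taken 10 days after the last injection, and bulk RNA-seq gave 29627341 to 30491197 counts per control mouse and 30597189 to 30967107 per Supt6-KO mouse. Controls had neither Cre nor tamoxifen, so their effects cannot be told apart from that of the deletion.

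Macrophages live in the dermis as long-lived resident cells and are joined by cells from blood monocytes when skin is inflamed. They need signals through the receptor CSF1R to survive, clear dying cells through receptors such as MERTK, take up ligands through scavenger receptors, and secrete lysozyme and the complement component C1q. The deletion was aimed at keratinocytes, and the Keratin 14 promoter is not active in macrophages. In bulk skin, fewer cells of a type and less RNA per cell cannot be told apart.

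Supt6 itself was measured first. Its level, in CPM (counts divided by the library's total and brought to a common size) with TMM factors (trimmed mean of M-values, which set the typical gene to no change), was 74.5, 56.6, 63.6, 91.1 and 96.7 in the controls and 28.6, 24.1, 21.9 and 28.4 in the Supt6-KO mice. All 4 Supt6-KO mice were below all 5 controls (log2 fold change -1.57, SE 0.18, adjusted p = 1.3e-05 in edgeR's quasi-likelihood test), and the mean was 33.7% of the control mean. The transcript is long (6185 bases), and the log2 fold change was -0.76 after a correction for length and -2.26 when scaled by library totals, called in both. The labels name the tissue as ear, whereas the study's text describes dorsal skin. Keratinocyte markers were abundant in every mouse, with Krt10 at 13620 to 15480 CPM in controls and 7775 to 19850 in Supt6-KO. Cartilage markers were also present in controls, with Acan at 83.5 to 294.4 CPM, against 10.7 to 15.5 in Supt6-KO. The site of sampling was not tested further.

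The 10 genes did not move as one. In Supt6-KO skin, 7 were called higher than in controls at an adjusted p under 0.05 (Adgre1, Cd68, Mrc1, Lyz2, C1qa, C1qb and C1qc), 2 were called lower (Csf1r and Mertk), and Cd163 did not pass. Changes were widespread, since 34.1% of all genes tested were called higher and 36.8% lower. At a change of at least 2-fold, 5 genes were higher and 2 lower, against 20.9% and 24.9% of all genes. The median log2 fold change was 0.91 over the 10 genes and -0.07 over all genes tested. It was 0.23 over the 10 genes with library totals and 0.53 after a correction for length, where the medians of all genes were -0.76 and 0.10. The groups did not overlap for Mrc1, Lyz2, C1qa and C1qb, with all Supt6-KO mice above, nor for Csf1r and Mertk, with all below, and the same happened in 28.9% and 31.8% of all genes. The 10 genes together summed to 178.4 to 388.9 CPM in controls and 721.7 to 1185 in Supt6-KO. Of these sums, Lyz2 alone was 71.3 to 119.5 CPM in controls and 407.4 to 910.5 CPM in Supt6-KO.

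**Figure D1:**
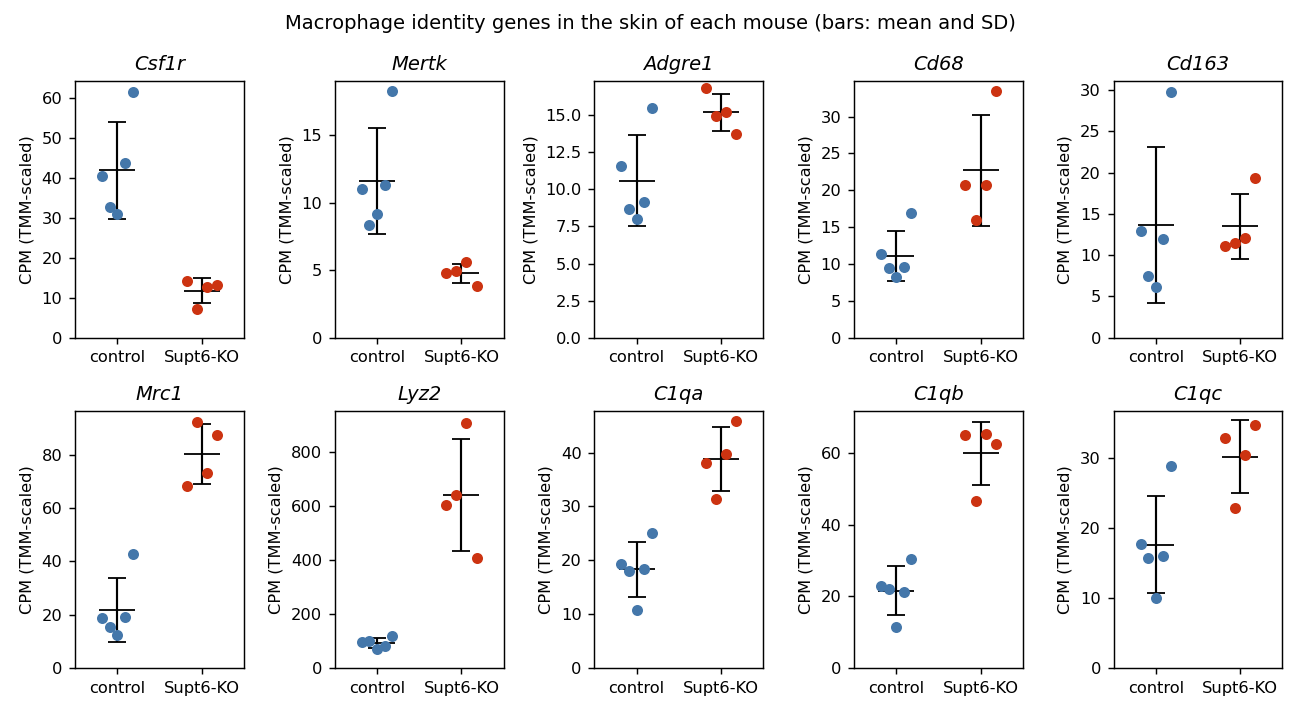
CPM of each macrophage identity gene (vertical axes, TMM-scaled, each from 0) in 5 control mice (blue) and 4 Supt6-KO mice (red); each point is a mouse and bars give the mean and SD. Csf1r and Mertk lie lower in every Supt6-KO mouse, Mrc1, Lyz2, C1qa and C1qb lie higher, and the groups overlap for Adgre1, Cd68, Cd163 and C1qc.

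A property of these libraries bears on every one of these calls. Over the genes tested, the median log2 fold change was 1.18 in 2141 genes with an effective length under 1000 bases and -0.64 in 6752 genes over 3000 bases, so short transcripts were higher and long ones lower in Supt6-KO. Among the macrophage genes, Lyz2 (769 bases), C1qc (766), C1qa (796), C1qb (819) and Cd68 (969) were short, while Adgre1 (3065), Csf1r (3735), Cd163 (4337), Mertk (4345) and Mrc1 (5259) were long. After a correction for length, 4 genes were called higher (Adgre1, Mrc1, Lyz2 and C1qb) and the same 2 lower, against 37.4% and 30.1% of all genes. Scaling by library totals in place of TMM moved the median of all genes to -0.76, and then 3 genes were called higher (Mrc1, Lyz2 and C1qb) and 2 lower, against 16.9% and 54.6% of all genes. Thus Mrc1, Lyz2 and C1qb were called higher and Csf1r and Mertk lower under all 3 of these scalings. RNA integrity and the source of the length trend were not tested.

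**Figure D2:**
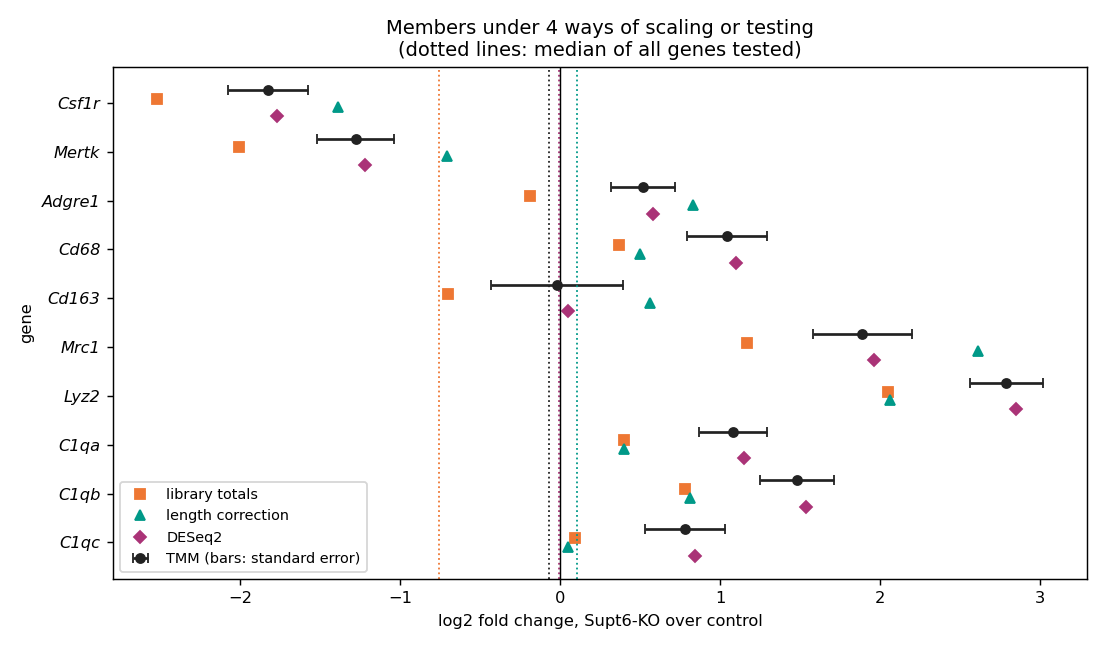
log2 fold change of Supt6-KO over control (horizontal axis) for each gene under TMM (black, bars are the standard error), library totals (orange squares), length correction (green triangles) and DESeq2 (purple diamonds); dotted lines are the median of all genes tested under each. Csf1r and Mertk stay to the left of 0 and Mrc1, Lyz2 and C1qb to the right, whereas Adgre1 goes to -0.19 with library totals and Cd163 lies on either side of 0.

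Csf1r encodes the receptor for colony-stimulating factor 1 and interleukin 34, on which tissue macrophages and Langerhans cells depend (gene on mouse chromosome 18, 61105572 to 61131139, GRCm38). It stood at 40.4, 32.7, 31.1, 43.9 and 61.6 CPM in the controls and at 14.2, 7.1, 12.6 and 13.2 CPM in the Supt6-KO mice. The highest Supt6-KO mouse was at less than the lowest control, and the mean fell to 28.0% of the control mean (41.9 ± 12.2 SD, n = 5, to 11.8 ± 3.17 SD, n = 4). The log2 fold change was -1.83 (SE 0.25, adjusted p = 5.1e-05), which lay below the median of long genes, and was -1.39 after length correction. Both ligands fell with it. Csf1 went from 18.3 to 28.4 CPM in controls to 7.36 to 11.3 CPM in Supt6-KO (log2 fold change -1.32, adjusted p = 5.3e-05), and Il34, which keratinocytes make, from 49.5 to 63.1 CPM to 10.0 to 26.4 CPM (-1.58, adjusted p = 9.9e-05). Langerhans cells also carry Csf1r, and of 13 Langerhans and dendritic cell markers 9 were lower and 2 higher, with a summed level of 1218 to 1434 CPM in controls and 170.4 to 479 CPM in Supt6-KO. Cd74, the invariant chain of MHC class II, had the highest CPM of them in controls (log2 fold change -3.14). Cd207, the Langerhans cell lectin, went from 32.7 to 63.1 CPM to 2.91 to 19.4 CPM. None of these markers was at 0 throughout a group, and their part in the fall of Csf1r was not tested.

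Mertk encodes a receptor tyrosine kinase through which macrophages recognise dying cells coated with GAS6 or protein S (chromosome 2, 128698915 to 128803162). Its level was 11.02, 8.32, 9.16, 11.3 and 18.3 CPM in controls and 4.76, 4.94, 5.58 and 3.84 CPM in Supt6-KO. All 4 Supt6-KO mice lay below the controls and within a narrow range, and the log2 fold change was -1.28 (SE 0.24, adjusted p = 0.00053). After length correction it was -0.71, still past the threshold. The bridging ligands fell as well, Gas6 from 272.5 to 120.9 CPM on average (log2 fold change -1.17, adjusted p = 1.2e-05) and Pros1 from 85.5 to 46.0 CPM (-0.89, adjusted p = 8.4e-05). Of the related receptors, Axl fell (-0.88, adjusted p = 0.0022) and Tyro3 rose (0.60, adjusted p = 0.00064). Pros1 (3130 bases) and Axl (4962 bases) are long, and their falls stand beside a median of -0.64 in genes over 3000 bases.

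Adgre1 encodes F4/80, an adhesion receptor of the macrophage surface (chromosome 17, 57358581 to 57483529). It was at 11.6, 8.68, 8.00, 9.17 and 15.5 CPM in controls and at 16.8, 14.9, 15.2 and 13.8 CPM in Supt6-KO. Control mouse 5 lay among the Supt6-KO mice, and the difference was small (log2 fold change 0.52, SE 0.20, adjusted p = 0.032). The call held in 3 of the 9 fits that left out 1 mouse, with adjusted p from 0.002 to 0.08 and a change of 0.44 to 0.70, and was also lost with upper-quartile factors (0.43) and with library totals, where the sign turned (-0.19). Cd68, a lysosomal glycoprotein of phagocytes (chromosome 11, 69664213 to 69666170), was at 11.3, 9.45, 8.19, 9.57 and 16.9 CPM in controls and at 20.7, 15.9, 20.7 and 33.5 CPM in Supt6-KO. The groups overlapped through control mouse 5 and Supt6-KO mouse 2, and the log2 fold change was 1.04 (SE 0.25, adjusted p = 0.003). It was not called after length correction (0.50) or with library totals (0.37), and it lay near the median of short genes.

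The 2 scavenger receptors of the set parted. Mrc1 encodes CD206, the mannose receptor (chromosome 2, 14229414 to 14332023). It was at 18.7, 15.5, 12.5, 19.0 and 42.9 CPM in controls and at 68.3, 92.3, 73.1 and 87.4 CPM in Supt6-KO. Every Supt6-KO mouse was above every control, by 3.70-fold in the means (log2 fold change 1.89, SE 0.31, adjusted p = 0.0002), and the change was 2.61 after length correction, against the direction of most long genes. Lymphatic endothelium also carries Mrc1. Of 10 endothelial markers none was called higher and 8 were lower, among them Flt4 and Prox1 of lymphatic vessels (log2 fold changes -2.87 and -2.08). The endothelial list summed to 66.6 to 151.8 CPM in controls and 44.6 to 56.6 CPM in Supt6-KO, with Pecam1 the highest in CPM and no marker at 0. Cd163 encodes the haemoglobin-haptoglobin scavenger receptor (chromosome 6, 124304636 to 124330529). It was at 12.9, 7.50, 6.17, 11.9 and 29.8 CPM in controls and at 11.1, 11.5, 12.0 and 19.4 CPM in Supt6-KO. The groups overlapped widely, and the log2 fold change was -0.02 with a standard error of 0.41 (adjusted p = 0.97). It was past the threshold in none of 18 alternative fits, and its sign changed among them, from -0.70 to 0.56.

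Lyz2 encodes lysozyme M, which macrophages, monocytes and neutrophils make (chromosome 10, 117277541 to 117282272). It stood at 94.5, 98.8, 71.3, 80.4 and 119.5 CPM in controls and at 605.5, 640.8, 910.5 and 407.4 CPM in Supt6-KO. The lowest Supt6-KO mouse was above the highest control, and the mean was 6.90-fold higher (log2 fold change 2.79, SE 0.23, adjusted p = 1.9e-06). After length correction the change was 2.06. Of the 14 neutrophil markers tested, 6 (Ly6g, Ngp, Ltf, Mpo, Stfa2l1 and Fpr1) had fewer than 10 counts in 1 whole group and entered the test through the other, so their direction was set by the filter on low counts and is not counted. Of the remaining 8, 7 were higher and none was lower, with a median log2 fold change of 5.76. S100a8 and S100a9, which inflamed keratinocytes also make, were among these 8. Together they had 6.17 to 35.5 CPM in controls and 2492 to 6372 CPM in Supt6-KO. Csf3r, the receptor for granulocyte colony-stimulating factor, was at 0.383 to 0.687 CPM in controls and 5.64 to 12.1 CPM in Supt6-KO, and Retnlg at 0.0821 to 0.526 CPM and 4.06 to 53.4 CPM. Camp, also among the 8, was not called (log2 fold change 0.1, adjusted p = 0.86). Mpo, among the 6 not counted, went the other way, from 0.107 to 0.703 CPM in controls to at most 0.0418 CPM in Supt6-KO. Ltf was at 0 in all controls, Ly6g was at most 0.686 CPM in any mouse, and Elane had too few counts to be tested. The part of neutrophils in the Lyz2 difference was not tested. The near-identical paralogue Lyz1 rose too (log2 fold change 2.10) and amounted to 18.3% to 22.4% of the Lyz2 counts in controls and 12.1% to 13.4% in Supt6-KO, and how the estimation of counts divided shared reads between the pair was not tested.

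C1qa, C1qb and C1qc lie side by side on chromosome 4 and encode the A, B and C chains of C1q, the recognition molecule of the classical complement pathway, which macrophages secrete. C1qa (136895916 to 136898844) was at 19.3, 17.96, 10.7, 18.3 and 25.1 CPM in controls and at 38.1, 31.4, 39.7 and 45.9 CPM in Supt6-KO. C1qb (136880126 to 136886200) was at 22.8, 22.0, 11.4, 21.2 and 30.5 CPM in controls and at 65.1, 46.8, 65.5 and 62.7 CPM in Supt6-KO. C1qc (136889801 to 136892936) was at 17.7, 15.6, 9.91, 15.9 and 28.7 CPM in controls and at 32.8, 22.8, 30.4 and 34.6 CPM in Supt6-KO. All Supt6-KO mice were above all controls for C1qa and C1qb, and for C1qc control mouse 5 lay above Supt6-KO mouse 2. The log2 fold change was 1.08 for C1qa (SE 0.21, adjusted p = 0.00065), 1.48 for C1qb (SE 0.23, adjusted p = 0.00014) and 0.78 for C1qc (SE 0.25, adjusted p = 0.017). C1qa and C1qc lay under the median of short genes and C1qb above it. After length correction C1qb was still called (0.81), while C1qa (0.40) and C1qc (0.05) were not.

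The make-up of the trio shifted between groups. Per unit of transcript length, C1qb held 34.5% to 38.4% of the 3 chains in controls and 42.7% to 47.2% in Supt6-KO, without overlap. C1qc held 29.2% to 35.3% in controls and 23.4% to 25.2% in Supt6-KO, again without overlap, while C1qa held 29.7% to 33.4% and 28.1% to 32.2%, with overlap. In an exact two-sided permutation test of the shares, p was 0.0159 for C1qb and for C1qc, the smallest that 5 against 4 mice allow, and 0.111 for C1qa (0.0238, 0.0238 and 0.111 after Benjamini-Hochberg adjustment over the 3 shares, which are not independent as they sum to the whole). The test of shares was not among those planned, and the shares come from the same counts as the fold changes above. The 3 transcripts have nearly the same effective length, and a share within a mouse does not depend on the scaling of its library.

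Promoters of 4 genes that were called in every fit are shown with the purine core bound by PU.1-type factors, which drive many myeloid genes. The 250 bases before a RefSeq start (GRCm38.p6) were read for 7 of the 10 genes (Adgre1, C1qa and Csf1r were not analysed here) and searched for GAGGAA on both strands (TTCCTC on the other), and matches are in capitals. The motif was in 23.3% of all 32851 promoter windows and in 4 of these 7 genes, Mrc1, C1qb, C1qc and Cd68. For C1qc and Cd163 the start used lies inside the bounds of the gene, so the end of the window overlaps it. The 4 sequences below are given 5′ to 3′ on the strand of the gene. Mrc1 (chr2:14229164-14229413, plus strand) holds 3 matches, the first beginning 180 bases before the start, and C1qb (chr4:136886201-136886450, minus strand) holds 1, beginning 30 bases before it. Lyz2 (chr10:117282273-117282522, minus strand), which rose most, and Mertk (chr2:128698665-128698914, plus strand), which fell, hold none in this window. A match describes the letters and was not tested as a binding site.
Mrc1: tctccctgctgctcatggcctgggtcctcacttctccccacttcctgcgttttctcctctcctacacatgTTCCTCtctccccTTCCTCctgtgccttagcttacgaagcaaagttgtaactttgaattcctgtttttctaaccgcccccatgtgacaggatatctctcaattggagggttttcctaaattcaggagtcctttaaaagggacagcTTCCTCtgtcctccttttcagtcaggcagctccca
C1qb: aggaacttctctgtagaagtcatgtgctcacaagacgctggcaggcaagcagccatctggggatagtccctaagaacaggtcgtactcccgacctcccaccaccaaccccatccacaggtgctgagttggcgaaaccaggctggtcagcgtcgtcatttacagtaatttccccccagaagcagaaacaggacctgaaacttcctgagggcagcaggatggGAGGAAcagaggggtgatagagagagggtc
Lyz2: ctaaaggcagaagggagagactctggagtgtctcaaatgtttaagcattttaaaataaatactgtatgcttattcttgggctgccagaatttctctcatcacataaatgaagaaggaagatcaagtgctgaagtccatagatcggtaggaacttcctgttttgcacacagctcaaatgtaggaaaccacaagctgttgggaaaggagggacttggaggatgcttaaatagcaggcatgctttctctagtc
Mertk: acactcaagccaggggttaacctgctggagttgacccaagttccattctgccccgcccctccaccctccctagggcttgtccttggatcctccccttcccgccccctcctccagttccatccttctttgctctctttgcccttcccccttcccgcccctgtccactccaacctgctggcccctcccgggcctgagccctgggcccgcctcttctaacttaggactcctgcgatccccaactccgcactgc

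Ratios within a mouse, which do not depend on library scaling, were then formed to ask whether the genes changed beside each other. Relative to Csf1r, each of the other 9 genes was called higher in Supt6-KO, as were 72.0% of all genes tested, and none lower, against 3.62%. At a ratio change of at least 2-fold, all but Mertk were higher, against 66.5% of all genes higher and 2.51% lower, so these shares follow the fall of Csf1r itself. Mrc1 was counted 0.401 to 0.696 times per Csf1r count in controls and 4.82 to 12.99 times in Supt6-KO (change in log2 ratio 3.94, SE 0.36, adjusted p = 0.00054). Lyz2 went from 1.83 to 3.02 per Csf1r count to 31.0 to 90.2 (4.69, SE 0.38, adjusted p = 0.00045), and C1qb from 0.366 to 0.672 to 4.60 to 6.60 (3.36, SE 0.20, adjusted p = 0.00026). Csf1r is long, so its ratios to short genes carry the length trend described above, and after length correction Csf1r was at -1.39, Lyz2 at 2.06 and C1qb at 0.81, which lie closer together. Among the long genes, Adgre1 (2.44, adjusted p = 0.00055) and Cd163 (2.00, adjusted p = 0.0015) also rose beside it. Mertk moved most nearly with Csf1r: its ratio was 0.255 to 0.297 in controls and 0.292 to 0.696 in Supt6-KO, with overlap (0.67, SE 0.25, adjusted p = 0.042), and it was no longer called in 7 of the 9 fits that left out 1 mouse, with 0.37 without Supt6-KO mouse 2.

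Ptprc encodes CD45, the phosphatase of all leukocytes. It was at 17.95, 16.7, 18.9, 17.9 and 20.3 CPM in controls and at 20.1, 22.6, 28.5 and 15.6 CPM in Supt6-KO, with overlap (log2 fold change 0.24, SE 0.16, adjusted p = 0.21). Its call depended on the scaling: it was higher with length correction (0.92, adjusted p = 0.00068) and without Supt6-KO mouse 4 (0.37, adjusted p = 0.027), and lower with library totals (-0.49, adjusted p = 0.013). Relative to Ptprc, Lyz2 (change in log2 ratio 2.52), Mrc1 (1.76), C1qb (1.31) and C1qa (0.94) were called higher and Csf1r (-1.98) and Mertk (-1.48) lower, against 22.7% and 33.3% of all genes. At a ratio change of at least 2-fold, Lyz2, Mrc1 and C1qb were higher and Csf1r and Mertk lower, against 15.5% and 26.8%. Lyz2 per Ptprc count was 3.77 to 5.94 in controls and 26.2 to 31.9 in Supt6-KO (adjusted p = 0.00012), a tight range in the knockouts although their CPM differed by over 2-fold. Csf1r per Ptprc count was 1.64 to 3.03 in controls and 0.315 to 0.845 in Supt6-KO (adjusted p = 0.0028). Adgre1 (0.35, adjusted p = 0.21), Cd68 (0.94, adjusted p = 0.073), C1qc (0.64, adjusted p = 0.15) and Cd163 (-0.09, adjusted p = 0.89) did not pass. The call for C1qa (adjusted p = 0.037) was lost in 6 of the 9 fits that left out 1 mouse, where the change stayed between 0.65 and 1.06. Ptprc is long (5148 bases), so its ratios to short genes carry the length trend: after length correction C1qb (0.81) and C1qa (0.40) changed by less than Ptprc (0.92), while Lyz2 (2.06) and Mrc1 (2.61) changed by more.

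Levels of different genes were compared only per transcript length, as TPM (counts per transcript length, as a share of the library) computed from the counts. In controls Lyz2 was highest (203.4 ± 62.1 TPM, SD, n = 5), followed by C1qb (44.9), C1qc (39.5) and C1qa (39.1), whose ranges overlapped, then Cd68 (19.5) and Csf1r (19.2), and then Mrc1 (7.20), Adgre1 (5.89), Cd163 (5.58) and Mertk (4.59), which also overlapped. In Supt6-KO the order was Lyz2 (480.8 ± 79.0 TPM, SD, n = 4), C1qb (45.4), C1qa (30.7), C1qc (24.8), Cd68 (15.3), Mrc1 (9.39), Adgre1 (3.01), Cd163 (2.02), Csf1r (1.99) and Mertk (0.654). Csf1r went from rank 6 to rank 9, where its range of 0.906 to 3.03 TPM overlapped those of Adgre1 and Cd163. TPM is a share of all transcripts, and its ratio of Supt6-KO to control had a median of -1.44 on the log2 scale over the 13563 genes with a mean of at least 1 CPM. On this scale Adgre1 (-0.97), Cd68 (-0.35), C1qa (-0.35) and C1qc (-0.67) had lower means in Supt6-KO but lay above that median, and Cd163 (-1.47) was at about that median. Csf1r (-3.27) and Mertk (-2.81) lay below it, and the means of Mrc1 (0.38), Lyz2 (1.24) and C1qb (0.02) were not lower.

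Within groups, the genes varied together to different degrees across the 9 mice, as a description after each group mean had been subtracted from log2 CPM. The C1q chains had correlations of 0.949 to 0.967 with each other, and Mrc1 and Cd163 of 0.929. Lyz2 stood apart, with correlations of -0.03 to 0.666 with the other 9. Among 12604 genes, those most like C1qa were Fcgrt, the neonatal Fc receptor (0.984), C5ar1, the receptor of complement C5a (0.971), and Serpinf1 (0.970). Those most like Csf1r were Dysf (0.973), Esyt1 (0.972) and Cyth4 (0.958), and those most like Lyz2 were C1qtnf2 (0.992), Hsd17b11 (0.972) and Cthrc1 (0.970). Picking the top of 12604 correlations over 9 mice makes such values high by itself. Between groups, Fcgrt (log2 fold change -1.09) and Serpinf1 (-1.84) fell while C1qa rose. Hsd17b11 (-0.98) and C1qtnf2 (-0.21) were lower while Lyz2 rose, and Cyth4 (0.65) was higher while Csf1r fell. C5ar1 (0.48), Dysf (-1.89), Esyt1 (-1.86) and Cthrc1 (0.86) had the sign of their partner. The points for each pair of genes come from the same libraries and share their scaling. Control mouse 5 was highest of the controls for all 10 genes as well as for the summed fibroblast list (11770 CPM, against 3689 to 6708 CPM in the other controls).

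Wider lists placed the 10 genes among other macrophage programmes, and their counts are set beside the 34.1% of all genes called higher and 36.8% called lower. Markers of resident dermal macrophages were mixed: of the 15 with at least 10 counts in each group, 5 were higher and 5 lower, with a median of 0.44, shares close to those of all genes. The number higher was 9 without control mouse 5 or with the replicate number as a block, and 3 without Supt6-KO mouse 4 or with library totals. Over all 16 tested, the median was 0.33, but it was -0.36 with library totals, where 7 were lower, and -0.03 after length correction. Clec10a, a galactose-binding lectin, rose (11.1 to 43.3 CPM in the means, log2 fold change 1.96), as did Selenop (1.72) and Pf4 (1.65), while Cx3cr1, the fractalkine receptor, fell to 11.5% of the control mean (-3.11), and the lectin Mgl2 (-1.91) and Cbr2 (-0.91) fell too. Markers of monocytes and inflammatory macrophages were mostly higher, 14 of 16, with a median of 2.92, and 11 were higher with library totals. Saa3 (8.49) and Chil3 (8.28) rose most, Chil3 from 0.102 to 0.277 CPM in controls to 35.96 to 66.2 CPM in Supt6-KO, and the monocyte receptor Ccr2 went from 4.69 to 11.5 CPM in the means (1.29, adjusted p = 0.00033). Fn1 (-1.66) and Thbs1 (-1.31), which fibroblasts also make, were the 2 that fell. Saa3 is also expressed by other cells of inflamed tissue.

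Of 16 macrophage growth factors and transcription factors, 8 were lower and 3 higher, with a median of -0.20. The balance depended on the scaling, with 5 lower and 5 higher after length correction and 12 lower and 2 higher with library totals, and 5 were lower without Supt6-KO mouse 2 and 5 higher without Supt6-KO mouse 4. Beside Csf1 and Il34, Csf2ra, a chain of the GM-CSF receptor, fell (-1.05), as did Spi1, which encodes PU.1, by less (-0.43, adjusted p = 0.023). Tfec (3.56) and Irf8 (0.85) rose. Of 20 phagocytosis and Fc receptor genes with at least 10 counts in each group, 12 were higher and 5 lower, with a median of 1.01, and of all 21 tested 8 were higher and 6 lower with library totals. Fcgr4 (4.51), the lipopolysaccharide co-receptor Cd14 (4.05) and the beta-glucan receptor Clec7a (3.57) rose most, and the scavenger receptor Cd36 fell (-1.35) with Gas6 and Pros1. Of 15 lysosomal genes, 9 were higher and 3 lower, with a median of 0.61, but with library totals 3 were higher and 6 lower (median -0.06). After Lyz1, the proteases Ctsl (1.56) and Ctsd (1.53) rose most, and Grn (-1.05), Psap (-0.95) and Gpnmb (-0.94) fell. Lysosomal genes are expressed by most skin cells.

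Lists of other cells in the skin gave the surroundings of these values. Of 10 pan-leukocyte genes, 4 were higher and 4 lower, with a median of 0.25 and a summed level of 243.1 to 273.5 CPM in controls and 289.8 to 356.9 CPM in Supt6-KO, again close to the shares over all genes. With library totals 1 was higher and 5 lower (median -0.46), and after length correction 2 were higher and 4 lower (median -0.08). Cd53 (1.49) and Arhgdib (0.72) rose while Laptm5 (-1.83), Cytip (-1.03) and Lcp1 (-0.92) fell. Of 8 T cell genes tested 5 were lower and 1 higher (median -0.82). Cd3e fell most (-4.13), and Cd8a was the 1 that rose (1.88, from a control mean of 0.205 CPM). Of 9 mast cell genes 3 were higher and 2 lower (median 0.15, but -0.55 with library totals and -0.13 after length correction). Fcer1a rose most (3.74, from a control mean of 0.461 CPM). Kit (-0.81) and Gata2 (-0.86) were the 2 that fell, and Mcpt4, the most abundant, was not called (-0.16). None of 10 fibroblast genes was higher and 5 were lower (median -0.57), and all 10 were lower with library totals (median -1.30). Markers of other tissue were mostly lower: 9 of 10 skeletal muscle genes (median -2.42), 7 of 10 adipocyte genes (median -1.61) and all 9 cartilage genes tested (median -3.43). Of 10 keratinocyte genes 5 were lower and 2 higher (median -0.62). Their summed level was 26810 to 30750 CPM in controls and 29290 to 41790 CPM in Supt6-KO. Endothelial genes had a median of -1.13, and Langerhans and dendritic cell genes of -1.70. The part of these shifts in the make-up of the skin in the macrophage gene differences was not tested.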

How the data were processed

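The authors sequenced mRNA libraries, mapped reads to mm10 with Bowtie2 2.3.4.3 and deposited RSEM 1.3.1 estimated counts for every mouse, with TPM for 6 of 9. HISAT and DESeq2 1.4.5 also appear in their processing notes, and the annotation release is not given in the sources used here. The authors' own fold changes and p-values were not used. The labels name a column-based RNA kit and the paper a phenol reagent.

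Estimated counts (9.0% not whole) were rounded, and genes with a sum under 10 over the 9 mice were left out. edgeR 4.0.16 (R 4.3.3) gave quasi-likelihood tests with TMM factors and Benjamini-Hochberg adjustment over 16426 genes. The alternatives were library totals, DESeq2 size factors, upper-quartile factors, DESeq2 1.42.0, other filters, a length correction, a replicate block and each mouse left out. Ratios to Csf1r or Ptprc used the log count of that gene as offset, with the spread of each gene on its own and not shared across genes as first planned, since a common reference puts the same noise into all genes. Deposited TPM gave effective lengths for 16025 genes. Exact two-sided permutation tests over mice cannot go below p = 0.0159, the value of every gene of the 10 whose groups did not overlap. Members and lists were chosen with earlier results of these data known. One gene of the lists is counted but not reported by name here. Named genes were the 10, Supt6, Ptprc, up to 3 non-overlapping called genes per list and direction with at least 1 CPM, markers that define a list and are at or near 0 (Ltf, Ly6g, Elane), and the 3 genes most correlated with Csf1r, C1qa and Lyz2. Ccr2, Spi1, Axl, Tyro3, Pecam1, Cd207, Ccr7, Cd8a, Mcpt4, Csf3r, Retnlg, Camp, Mpo, Ngp, Fpr1 and Krt10 fall outside this rule and were chosen after their values were seen. Nothing in the labels ties replicates to litters, and p-values measure the spread between these mice. The tests were checked on simulated data. There, all genes had the same spread setting, rises and falls were balanced, and the length trend of these libraries was absent. The numbers of false calls below therefore do not give the error rate of the calls reported here. With 200 changed genes of 16434, edgeR made 10 false calls and DESeq2 25. With 4000 changed genes of 16405, the ratio tests made 76 false calls relative to Csf1r and 470 relative to Ptprc. They recovered 36.7% and 46.5% of 2-fold changes. In the simulations the ratio tests kept to their raw error rate on average, but noise in the shared reference made false calls come together, in some draws above the adjusted threshold, so their adjusted p-values are less firm than the others.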

Additional observations from a re-analysis of the deposited data

Results flagged for a closer look

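In 5 of 62 groups of mice examined, where chance gives about 1 in 20 (3.1), the highest or lowest mouse stood apart from the rest. Control mouse 5 was high for Mrc1 (42.9 CPM, group median 18.7) and for Cd163 (29.8 CPM, median 11.9). Supt6-KO mouse 4 was high for Cd163 (19.4 CPM, median 11.8). Supt6-KO mouse 2 was low for C1qb (46.8 CPM, median 63.9). Supt6-KO mouse 3 was high for the summed adipocyte list (582.7 CPM, median 449.2).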

How the results depend on the processing

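Over 18 alternative fits, Lyz2, Mrc1 and C1qb were called higher and Csf1r, Mertk and Supt6 lower in all 18. Cd68, C1qa and C1qc were called in 16, and lost with library totals and with length correction. Adgre1 was called in 10 and Cd163 in none. With library totals 1470 genes were called higher by at least 2-fold and 6802 lower, against 3427 and 4088, 3 of the 10 genes were called higher in place of 7, Adgre1 went to -0.19, and Ptprc went to -0.49, past the threshold. With length correction 4 of the 10 were called higher and Cd163 was at 0.56. Cd163 was at 0.05 with DESeq2 size factors and at 0.05 with DESeq2. In the per-length scale, added after seeing the data and without a test, Ptprc (-1.28), Adgre1 (-0.97), Cd68 (-0.35), C1qa (-0.35) and C1qc (-0.67) were lower in Supt6-KO. The cause of these changes was not tested. Leaving out 1 mouse at a time gave 6 to 7 of the 10 higher and 2 lower, 3248 to 3476 genes higher and 3845 to 4204 lower, and Cd163 between -0.25 and 0.49, the latter without control mouse 5. Relative to Csf1r, 8 to 9 genes were higher, and relative to Ptprc 3 to 4 higher and 2 lower. Same-numbered mice of the groups deviated together with correlations of 0.0108, 0.246, 0.242 and 0.0629, so the numbers were not taken as pairs, and a fit that added the replicate block called 3134 higher and 3834 lower, among the 10 genes 7 and 2, put Cd163 at 0.52, and called 8 genes higher relative to Csf1r and 3 relative to Ptprc. Depth was nearly equal, and few counts limit Ly6g. Of the lists of other cells, 4 mast cell genes were lower with library totals, and a filter asking for 10 counts per mouse left 4 neutrophil genes higher, as fewer of them were tested.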
